A study of Homo sapiens with 12 samples.

Results

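The transcriptome of RPE1 cells kept for 72 h in 50 nM doxorubicin was compared with that of RPE1 cells kept for 72 h in the solvent DMSO. RPE1 is an immortalised human line from the retinal pigment epithelium, and doxorubicin is an anthracycline that holds topoisomerase II on cut DNA. Both groups were wild type, held 4 libraries each and received their treatment at plating, so 8 of the 12 libraries of the series were used. The other 4, which also received ferrostatin-1, were left out. The deposited table had 21599 rows once identifiers with the same gene name had been summed, and 13106 of them had enough counts to be tested. The labels name replicates without saying whether these were separate cultures, so p-values measure the spread between 4 samples a group, which may be technical.

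In dividing cells, cyclins and cyclin-dependent kinases drive each step of the cycle, and they also free the E2F factors that switch on genes of DNA replication. Genes of mitosis are switched on later in the cycle by the MuvB complex with B-MYB and FOXM1. DNA breaks raise CDKN1A, whose protein p21 blocks these kinases and lets repressor complexes occupy the same promoters. Cells held in such an arrest for days often enlarge, secrete matrix and signalling proteins and expand their lysosomes, a state studied as senescence.

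Library totals ran from 17523920 to 20607019 counts. Levels are CPM, each library's counts scaled to a common total with TMM factors, given as mean ± SD with n = 4, and a count of 0 in a library allowed up to 0.145 to 0.176 CPM. Control replicate 1 stood apart from the other controls, with chi-square values, each divided by its degrees of freedom across genes, of 6.96 to 12.9 against 2.33 to 3.80 among the other 3, while pairs from different groups had 120.0 to 139. The first principal component held 79.7% of the variance and separated the groups. Mitochondrial transcripts took 2.91% ± 0.12 of the counts in control and 3.97% ± 0.086 in doxorubicin, and the 100 most abundant genes took 20.4% ± 0.067 and 24.3% ± 0.037. Both differences had p = 0.0286 in a two-sided exact permutation test with n = 4 a group, the smallest p it can give. Rows with at least 1 count numbered 16716 ± 180.1 and 16492 ± 132 (exact permutation p = 0.0857, n = 4). Of 17 retinal pigment epithelium markers, 5 were tested, 3 (RGR, DCT and TRPM1) had 0 counts in every library and RPE65 was not analysed here. Their summed level was 69.1 to 70.9 CPM in control and 60.8 to 61.8 CPM in doxorubicin libraries. Summed mesenchymal markers were at 15274 to 16525 CPM and 19459 to 20358 CPM, of which FN1 alone rose from 7235 ± 765 to 12605 ± 694 CPM while 6 of the 12 tested members fell. Summed epithelial markers were at 3.85 to 5.04 and 9.31 to 10.2 CPM, most of it from KRT15 alone. Immune markers were at 66.2 to 74.7 and 73.2 to 81.6 CPM, most of it from CD68 alone. Endothelial markers were at 7.34 to 12.1 and 12.6 to 14.3 CPM. Neuronal markers were at 481 to 535 and 571 to 602 CPM, most of it from TUBB3 alone. Among those lists EPCAM, KRT14, LUM and ELAVL4 were at 0 in every library. What part marker levels play in the results was not tested.

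Most tested genes differed between the groups, and large falls outnumbered large rises. Of the 13106 tested genes, 8911 (68.0%) were called at an adjusted p below 0.05, 4467 higher (34.1%) and 4444 lower (33.9%). At least 2-fold changes were called in 642 genes that rose (4.9%) and 1143 that fell (8.72%), and at least 8-fold changes in 25 and 180. The groups did not overlap, with each of 4 libraries above each of the other 4, for 8044 genes (61.4%). Where the groups of a gene below are said not to overlap or to lie apart, that share is the comparison. Called changes of under 2-fold made up 80.0% of the calls. Without TMM factors, on library totals alone, the median over all genes went from -0.01 to -0.15 on the log2 scale, and rises made up 35.5% of the calls in place of 50.1%. Changes are given relative to the TMM scale. These are shares of RNA in a bulk sample, in which fewer cells of a kind and less RNA per cell cannot be told apart.

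**Figure D1:**
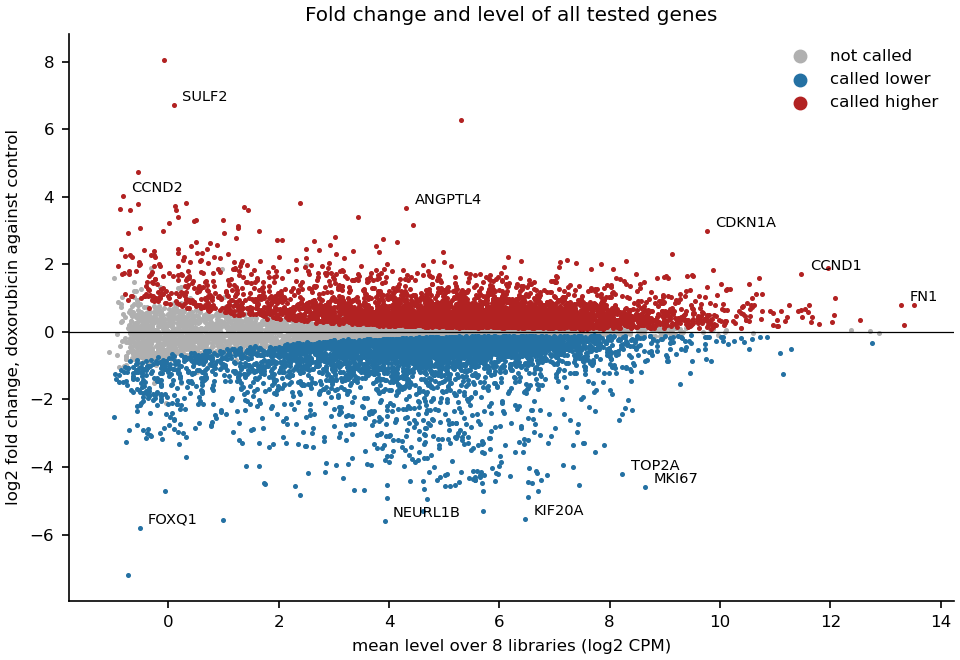
Each point is 1 of 13106 tested genes, with its mean level over 8 libraries in log2 CPM on the horizontal axis and its log2 fold change between doxorubicin and control on the vertical axis. Points called higher are red, points called lower blue and the others grey; the lower cloud reaches below -4 at levels where few red points pass 2.

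Most of the 12 deepest falls under the naming rule were in genes of spindle and chromosome. The rule took the 12 deepest falls and 12 largest rises only from genes whose groups did not overlap. Separation of the groups in these genes was therefore fixed by the choice, and 61.4% of all tested genes had it. NEURL1B, a ubiquitin ligase that acts on Notch ligands, was at 28.8, 30.3, 29.5 and 27.1 CPM in control replicates 1 to 4 and 0.862, 0.663, 0.219 and 0.644 CPM in doxorubicin replicates 1 to 4 (adjusted p = 1.84e-14 for a log2 fold change of -5.59 ± 0.16). KIF20A, a kinesin of cytokinesis, was at 175, 171, 171 and 170.3 CPM in control replicates 1 to 4 and 4.02, 3.77, 4.22 and 2.63 CPM in doxorubicin replicates 1 to 4 (adjusted p = 1.65e-17 for a log2 fold change of -5.55 ± 0.082). The control values of both genes lay within a narrow band, and the highest doxorubicin value was far below the lowest control value. NUSAP1, which bundles spindle microtubules, fell from 100.03 ± 4.94 to 2.55 ± 0.28 CPM. TROAP, a microtubule-associated protein of the spindle, fell from 47.2 ± 4.07 to 1.18 ± 0.186 CPM. NEK2, a kinase that parts the centrosomes, fell from 49 ± 3.56 to 1.55 ± 0.902 CPM. CENPA, PLK1, CDC20 and KIF2C belong to the same 12 and are described with mitosis, and E2F2 with the regulators. MND1, a recombination protein of meiosis, fell from 9.64 ± 1.8 to 0.341 ± 0.286 CPM. DEPDC1B fell from 21.7 ± 0.524 to 0.834 ± 0.203 CPM.

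Among the 12 largest rises were 4 histone genes, H4C8, H2BC4, H2BC21 and H2AC6, described with chromatin. CDKN1A was at 179.8, 199.6, 195 and 201 CPM in control replicates 1 to 4 and 1499, 1488, 1616 and 1548 CPM in doxorubicin replicates 1 to 4 (adjusted p = 3.6e-17 for a log2 fold change of 2.99 ± 0.048). Every doxorubicin library held several times the level of any control library. ANGPTL4, which codes for a secreted protein that blocks lipoprotein lipase, rose from 2.94 ± 0.873 to 37.2 ± 2.25 CPM. TUBB4A, a beta-tubulin best known from brain, was at 0.709, 0.759, 0.581 and 0.739 CPM in control replicates 1 to 4 and 5.05, 5.76, 6.3 and 5.09 CPM in doxorubicin replicates 1 to 4 (adjusted p = 1.15e-09 for a log2 fold change of 2.99 ± 0.20). The groups of TUBB4A did not overlap, which the naming rule required. DNAI3, a dynein intermediate chain of motile cilia, rose from 0.364 ± 0.303 to 3.56 ± 0.416 CPM. LIPH, a phospholipase that makes lysophosphatidic acid, rose from 0.477 ± 0.225 to 4.24 ± 0.146 CPM. PSG4, of the pregnancy-specific glycoproteins, rose from 0.491 ± 0.164 to 4.23 ± 1.11 CPM, and since that family has near-identical copies the reads of 1 member are uncertain. ALPK2, an atypical protein kinase, rose from 2.03 ± 0.473 to 14.4 ± 1.13 CPM. TMEM132B, a transmembrane protein, rose from 0.573 ± 0.271 to 4.03 ± 0.215 CPM.

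Most genes that damage and growth arrest are known to induce rose. Growth arrest and damage-inducible genes had 34 tested members, of which 29 rose, 2 fell and 3 did not pass (median log2 fold change 1.11). TNFRSF10D, a decoy receptor for the death ligand TRAIL, rose from 56 ± 2.63 to 246 ± 11.5 CPM (adjusted p = 2.36e-15 for a log2 fold change of 2.13 ± 0.050), and the death receptor gene TNFRSF10B rose from 118 ± 0.908 to 274 ± 5.63 CPM. ZMAT3, which codes for an RNA-binding protein, rose from 87.1 ± 6.64 to 319.8 ± 8.93 CPM (adjusted p = 2.05e-14 for a log2 fold change of 1.88 ± 0.053). The larger changes also held BTG2, an antiproliferative gene, at 4.45, 3.63, 4.46 and 3.6 CPM in control replicates 1 to 4 and 24.2, 21.7, 23.9 and 23.7 CPM in doxorubicin replicates 1 to 4. They further held SPATA18, a gene of mitochondrial quality control, which rose from 3.24 ± 0.648 to 17.2 ± 1.28 CPM, and TIGAR, which lowers glycolytic flux and rose from 19.6 ± 0.632 to 65 ± 3.5 CPM. The groups of BTG2 did not overlap. The 2 that fell were MDM4, a partner of MDM2, from 28.4 ± 2.78 to 15.2 ± 2.03 CPM, and GADD45B, a stress sensor, from 57.1 ± 6.35 to 50.3 ± 2.58 CPM. The call of GADD45B was lost when any 1 of 5 libraries was left out (control replicates 3 and 4 and doxorubicin replicates 1, 2 and 4, adjusted p from 0.059 to 0.135 in edgeR's quasi-likelihood test). These 5 were named after their values were seen.

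Mitotic and S-phase cyclins fell, while the 3 D-type cyclin genes rose. Cyclins and their kinases had 20 tested members, of which 4 rose, 15 fell and 1 did not pass (median log2 fold change -2.4). CCNA2, cyclin A2 of S phase and G2, fell from 174 ± 5.32 to 7.96 ± 0.537 CPM (adjusted p = 8.22e-18 for a log2 fold change of -4.45 ± 0.060), CCNB2, a mitotic cyclin, fell from 82.8 ± 2.06 to 4.1 ± 0.532 CPM, and CCNB1 was at 134, 142, 141 and 149.6 CPM in control replicates 1 to 4 and 12.2, 10.8, 14 and 11.8 CPM in doxorubicin replicates 1 to 4. PKMYT1, a kinase that holds CDK1 inactive, fell from 92.5 ± 2.81 to 9.23 ± 0.736 CPM. The 4 that rose all belong to the step from G1 to S phase. CCND1, cyclin D1, was at 1358, 1306, 1322 and 1313 CPM in control replicates 1 to 4 and 4479, 4270.1, 4378 and 4361 CPM in doxorubicin replicates 1 to 4 (adjusted p = 4.5e-16 for a log2 fold change of 1.72 ± 0.035). Its doxorubicin libraries lay close together, each over 3 times the highest control library. CCND2, cyclin D2, was near the limit of detection in control and was at 0.0506, 0, 0 and 0.148 CPM in control replicates 1 to 4 and 0.976, 0.765, 0.932 and 0.995 CPM in doxorubicin replicates 1 to 4, which is 4 control counts in all against 66. CDK6, their kinase partner, rose from 76.4 ± 7.88 to 125 ± 6.88 CPM. CCND3, cyclin D3, rose from 65.9 ± 4.92 to 80.6 ± 3.75 CPM. CDK4, the other partner of the D cyclins, fell from 209 ± 17.7 to 121 ± 3.94 CPM (adjusted p = 3.19e-09 for a log2 fold change of -0.79 ± 0.057). CCND2, CDK6, CCND3 and CDK4 were named after their values were seen.

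Most other inhibitor genes fell while CDKN1A rose. CDK inhibitors and pocket proteins had 10 tested members, of which 2 rose, 7 fell and 1 did not pass (median log2 fold change -0.84). CDKN2C, which codes for the CDK4 and CDK6 inhibitor p18, was at 71.9, 79.7, 85.6 and 88.1 CPM in control replicates 1 to 4 and 7.7, 6.37, 6.69 and 8.13 CPM in doxorubicin replicates 1 to 4 (adjusted p = 4.95e-15 for a log2 fold change of -3.5 ± 0.088). The lowest control library was several times the highest doxorubicin library. CDKN1B, which codes for p27, fell from 117 ± 4.82 to 60.2 ± 0.787 CPM (adjusted p = 2.25e-11 for a log2 fold change of -0.95 ± 0.046). RBL1, the pocket protein p107 that E2F itself induces, fell from 38.4 ± 2.76 to 5.9 ± 0.669 CPM. The other riser was CDKN2B, which codes for p15 and rose from 16 ± 0.41 to 26.3 ± 1.43 CPM. CDKN1C, which codes for p57, fell from 0.966 ± 0.222 to 0.138 ± 0.0544 CPM, both named after their values were seen.

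Most genes of the transcription factors that run the cycle fell as well. E2F, MuvB and FOXM1 regulators had 18 tested members, of which 2 rose, 14 fell and 2 did not pass (median log2 fold change -1.0). E2F2, an activator of S-phase genes, was at 20, 19.8, 18.3 and 18.8 CPM in control replicates 1 to 4 and 0.46, 1.02, 0.603 and 0.878 CPM in doxorubicin replicates 1 to 4 (adjusted p = 1.05e-13 for a log2 fold change of -4.68 ± 0.15). FOXM1, the forkhead factor of mitotic genes, was at 277, 262, 262 and 262 CPM in control replicates 1 to 4 and 17.5, 17.4, 15.8 and 18.4 CPM in doxorubicin replicates 1 to 4 (adjusted p = 8.22e-18 for a log2 fold change of -3.94 ± 0.054). Neither gene had a doxorubicin library near the control range. For E2F2 the rule for the largest falls required groups that did not overlap. MYBL2, which codes for B-MYB, fell from 96.3 ± 1.18 to 8.05 ± 0.532 CPM. E2F1 fell from 78.2 ± 2.19 to 11.1 ± 1.0 CPM. LIN9, a MuvB subunit, fell from 13.9 ± 0.987 to 2.57 ± 0.489 CPM. LIN37, the subunit needed for its repressive form, rose from 6.72 ± 0.873 to 9.04 ± 0.792 CPM, both named after their values were seen.

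**Figure D2:**
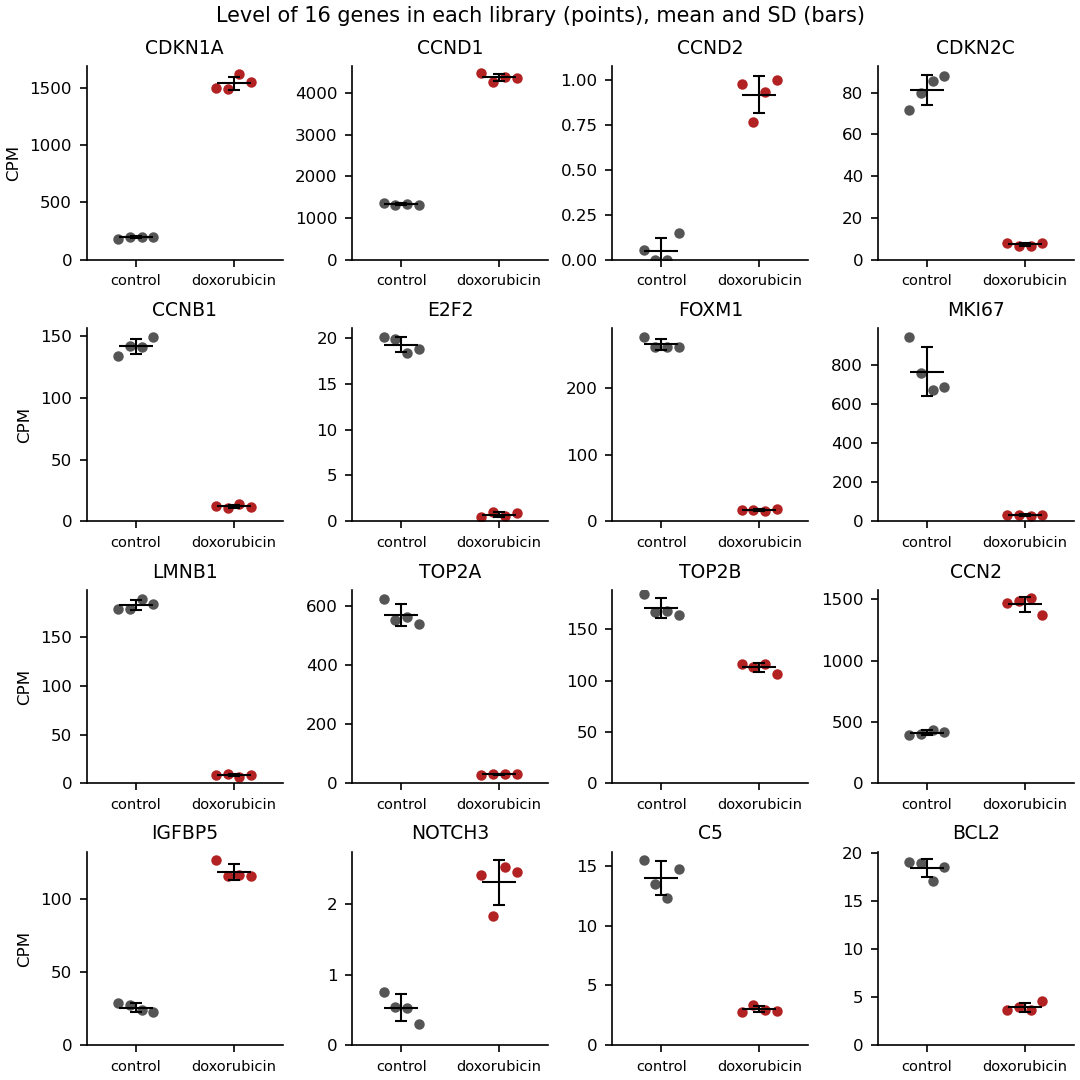
Each panel gives the level of 1 gene in CPM in every library, 4 control (grey) and 4 doxorubicin (red), with the mean and SD in black and the axis from 0. The genes were picked with their values known. No panel has overlapping groups, as is true of 61.4% of all tested genes. CCND1 and CDKN1A rise together while CDKN2C, CCNB1, E2F2 and FOXM1 drop to near the axis.

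Genes of mitosis fell with few exceptions. All 12 mitotic kinesins fell, with a median log2 fold change of -4.2, and all 12 mitotic kinases and chromosomal passengers fell, with a median of -4.16. PLK1, the kinase that runs mitotic entry and exit, was at 169, 175, 177 and 184 CPM in control replicates 1 to 4 and 5.23, 6.07, 6.69 and 5.91 CPM in doxorubicin replicates 1 to 4 (adjusted p = 8.22e-18 for a log2 fold change of -4.88 ± 0.067). KIF2C, a kinesin that takes microtubules apart, fell from 100.01 ± 3.5 to 3.79 ± 0.558 CPM, KIF11, which pushes spindle poles apart, fell from 193 ± 9.67 to 10.7 ± 0.76 CPM. KIF18B fell from 60.5 ± 2.48 to 3.23 ± 0.301 CPM. CDCA8, borealin of the chromosomal passenger complex, fell from 89.2 ± 2.05 to 4.27 ± 0.41 CPM, BIRC5, survivin of the same complex, fell from 189.8 ± 13.2 to 11 ± 0.516 CPM. TPX2, which activates Aurora A, fell from 292 ± 4.99 to 28.7 ± 1.86 CPM. The groups of PLK1 did not overlap, which the rule for the largest falls required.

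Of the kinetochore and centromere genes, 33 were tested, and 1 rose, 32 fell and 0 did not pass (median log2 fold change -2.98). CENPA, the histone H3 variant of centromeres, was at 27.3, 31.8, 27.9 and 31.1 CPM in control replicates 1 to 4 and 0.689, 1.38, 1.15 and 0.644 CPM in doxorubicin replicates 1 to 4 (adjusted p = 3.66e-14 for a log2 fold change of -4.9 ± 0.14). Its 4 doxorubicin values were all far below the lowest control value, and the rule for the largest falls required separate groups. NUF2, of the complex that holds microtubules, fell from 60.8 ± 1.54 to 2.54 ± 0.545 CPM. NDC80, its partner, fell from 54.6 ± 3.82 to 2.61 ± 0.375 CPM. HJURP, the chaperone that loads CENPA, fell from 99.7 ± 4.38 to 5.29 ± 0.456 CPM. KNL1, a kinetochore scaffold, fell from 88.4 ± 8.15 to 4.5 ± 0.434 CPM. The 1 that rose was CENPT, a constitutive centromere protein named after its values were seen, from 36 ± 1.49 to 45.3 ± 3.8 CPM. The smallest falls were those of CENPC, which stays on centromeres through the cycle, from 15.3 ± 2.15 to 7.64 ± 0.626 CPM (log2 fold change -1.0 ± 0.11), and the MIS12 subunits PMF1, from 36.8 ± 3.96 to 24.7 ± 2.56 CPM, and NSL1, from 25 ± 1.03 to 17.2 ± 0.322 CPM, all 3 named after their values were seen.

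Spindle checkpoint and anaphase-promoting complex had 23 tested members, of which 2 rose, 16 fell and 5 did not pass (median log2 fold change -0.47). CDC20, the mitotic activator of the complex, was at 188, 199, 203 and 204 CPM in control replicates 1 to 4 and 7.98, 7.29, 7.02 and 7.84 CPM in doxorubicin replicates 1 to 4 (adjusted p = 7.95e-18 for a log2 fold change of -4.72 ± 0.061). The groups of CDC20 did not overlap, which the rule for the largest falls required. BUB1 and BUB1B, checkpoint kinases, fell from 119 ± 5.24 to 6.4 ± 0.719 CPM and from 116 ± 1.59 to 6.4 ± 1.03 CPM. MAD2L1, a checkpoint protein, fell from 88.8 ± 2.62 to 8.66 ± 0.667 CPM. Genes named ANAPC, for subunits of the complex, had log2 fold changes from -0.49 for ANAPC1 to 0.39 for ANAPC13, and FZR1, its activator in G1, fell from 84.6 ± 4.39 to 61.3 ± 3.37 CPM (log2 fold change -0.47 ± 0.055). These 3 were named after their values were seen. Condensin and cohesin had 23 tested members, of which 1 rose, 21 fell and 1 did not pass (median log2 fold change -1.74). NCAPG, a condensin subunit, fell from 121 ± 6.93 to 8.45 ± 0.412 CPM, SMC4, its ATPase, fell from 335 ± 19.9 to 34.3 ± 1.59 CPM, NCAPD2 fell from 267 ± 5.84 to 44.2 ± 2.81 CPM and NCAPG2, of condensin II, fell from 157 ± 5.35 to 17.3 ± 1.02 CPM. Transport kinesins had 11 tested members, of which 7 rose, 2 fell and 2 did not pass (median log2 fold change 0.2), which carry cargo. KIF1C rose from 331 ± 14.8 to 499.9 ± 33.4 CPM, KIF3B rose from 65.9 ± 1.35 to 97.1 ± 1.83 CPM. KIF5B fell from 354 ± 24.3 to 282 ± 9.72 CPM.

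Nearly all genes of the DNA replication machinery fell. Origin licensing and helicase had 25 tested members, of which 23 fell and 2 did not pass (median log2 fold change -2.63), and all 26 replicative polymerases and fork proteins fell (median -2.05). MCM7, of the helicase ring, was at 314, 335, 336 and 339.6 CPM in control replicates 1 to 4 and 33.6, 35.6, 32 and 34.5 CPM in doxorubicin replicates 1 to 4 (adjusted p = 2.07e-17 for a log2 fold change of -3.29 ± 0.050). MCM2 fell from 174 ± 2.8 to 22.5 ± 1.46 CPM, MCM4 fell from 298 ± 9.52 to 44.6 ± 1.22 CPM and MCM5 fell from 189.5 ± 7.33 to 23 ± 0.939 CPM, which are other subunits of the ring. POLE2, a subunit of the leading-strand polymerase, was at 9.52, 9.17, 10.2 and 10.6 CPM in control replicates 1 to 4 and 0.919, 0.969, 1.37 and 0.527 CPM in doxorubicin replicates 1 to 4 (adjusted p = 1.37e-10 for a log2 fold change of -3.36 ± 0.19) and is shown because its promoter is printed with the motifs. In both genes the groups lay apart. CLSPN, claspin of the fork, fell from 71.8 ± 3.83 to 7.76 ± 0.804 CPM, RFC3, of the clamp loader, fell from 52.1 ± 0.98 to 8.2 ± 0.317 CPM, LIG1, which joins Okazaki fragments, fell from 87.3 ± 3.3 to 17.3 ± 1.03 CPM. TIMELESS fell from 111 ± 1.15 to 22 ± 1.9 CPM. The smallest falls among them were those of POLE4, from 45 ± 4.82 to 38.2 ± 2.96 CPM, and POLD2, from 159 ± 12.3 to 112 ± 0.34 CPM, both named after their values were seen.

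Deoxyribonucleotide supply had 14 tested members, of which 5 rose and 9 fell (median log2 fold change -1.52). RRM2, the ribonucleotide reductase subunit of S phase, fell from 391 ± 5.24 to 32.9 ± 1.5 CPM, and RRM2B, its counterpart outside S phase and after damage, was at 37.9, 32.2, 32.8 and 33.8 CPM in control replicates 1 to 4 and 101, 96.5, 106 and 87.4 CPM in doxorubicin replicates 1 to 4 (adjusted p = 7.82e-12 for a log2 fold change of 1.52 ± 0.068). TK1, the cytosolic thymidine kinase of S phase, fell from 165 ± 17.2 to 17.9 ± 1.0 CPM. TK2, the mitochondrial one, rose from 37.2 ± 1.61 to 49.4 ± 2.98 CPM. RRM2B and TK2 were named after their values were seen. TYMS, thymidylate synthase, fell from 241 ± 14.4 to 44.8 ± 2.79 CPM.

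Promoter sequences came from RefSeq on GRCh38.p14, the first listed start of each gene, from 250 bases before it to 50 after. They were at hand for 10086 of 12444 tested protein-coding genes (81.1%), but for 75.4% of those at least 4-fold lower, 77.9% of those 2 to 4-fold higher and 68.9% of those at least 4-fold higher, so for these 3 classes, with under 80% covered, the shares are void as a check of the class and describe only the promoters at hand. The words searched on both strands were TTTGAA and TTCGAA for the cell cycle homology region (CHR) that MuvB reads, CCAAT for NF-Y, the 4 words TTTCCCGC, TTTCGCGC, TTTGCCGC and TTTGGCGC for E2F, TGACTCA and TGAGTCA for AP-1, and GGAATG for TEAD. TTCGAA is its own reverse complement, the AP-1 words are each other's reverse complement, and a CCAAT word can share bases with an E2F word. The first 3 genes were printed because they had the largest falls among mitosis genes with a CHR word, the next 2 because they did so among replication genes with an E2F word, and the last 2 because they had the largest rises among matrix, cytoskeleton and signalling genes with a TEAD word. Each line gives the 250 bases before the start, 5′ to 3′ in the direction of the gene, and capitals mark the CHR and CCAAT words, the E2F and CCAAT words or the TEAD words on either strand.
CENPA (chr2:26785806-26786055, plus strand): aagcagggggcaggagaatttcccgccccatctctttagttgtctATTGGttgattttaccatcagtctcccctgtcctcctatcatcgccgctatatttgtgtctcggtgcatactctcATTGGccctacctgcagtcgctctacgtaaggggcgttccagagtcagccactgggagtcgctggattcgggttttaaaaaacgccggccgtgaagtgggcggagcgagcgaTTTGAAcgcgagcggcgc
PLK1 (chr16:23678639-23678888, plus strand): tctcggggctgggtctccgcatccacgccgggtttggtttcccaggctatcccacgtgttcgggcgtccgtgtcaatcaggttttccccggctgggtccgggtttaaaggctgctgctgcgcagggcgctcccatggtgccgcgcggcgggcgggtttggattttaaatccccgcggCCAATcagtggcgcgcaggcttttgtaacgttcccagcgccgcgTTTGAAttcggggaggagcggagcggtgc
CDC20 (chr1:43358731-43358980, plus strand): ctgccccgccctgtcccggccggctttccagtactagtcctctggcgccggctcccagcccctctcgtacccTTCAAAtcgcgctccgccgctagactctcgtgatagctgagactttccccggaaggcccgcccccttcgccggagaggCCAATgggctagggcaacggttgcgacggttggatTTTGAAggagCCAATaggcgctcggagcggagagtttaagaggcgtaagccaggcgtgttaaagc
POLE2 (chr14:49688215-49688464, minus strand): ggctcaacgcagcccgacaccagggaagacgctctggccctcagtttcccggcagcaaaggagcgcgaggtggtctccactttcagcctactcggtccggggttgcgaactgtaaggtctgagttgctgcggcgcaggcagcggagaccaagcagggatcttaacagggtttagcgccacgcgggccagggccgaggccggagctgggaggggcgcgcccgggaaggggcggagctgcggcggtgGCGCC
MCM7 (chr7:100101398-100101647, minus strand): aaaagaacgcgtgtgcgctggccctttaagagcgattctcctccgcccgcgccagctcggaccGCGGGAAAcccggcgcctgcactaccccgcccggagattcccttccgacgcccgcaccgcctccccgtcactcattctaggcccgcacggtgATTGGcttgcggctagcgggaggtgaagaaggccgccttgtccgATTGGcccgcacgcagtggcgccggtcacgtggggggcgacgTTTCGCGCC
CCN2 (chr6:131951373-131951622, minus strand): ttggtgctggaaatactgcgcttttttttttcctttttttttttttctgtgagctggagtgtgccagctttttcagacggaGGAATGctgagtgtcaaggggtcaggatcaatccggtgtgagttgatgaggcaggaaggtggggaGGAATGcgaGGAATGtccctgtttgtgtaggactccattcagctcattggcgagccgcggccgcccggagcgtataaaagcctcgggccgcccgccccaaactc
LMOD1 (chr1:201946549-201946798, minus strand): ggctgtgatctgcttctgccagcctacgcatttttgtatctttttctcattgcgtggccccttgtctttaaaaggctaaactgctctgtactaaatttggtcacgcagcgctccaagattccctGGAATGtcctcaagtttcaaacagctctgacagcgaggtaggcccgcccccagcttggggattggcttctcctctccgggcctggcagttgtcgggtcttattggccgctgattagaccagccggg
CENPA, PLK1 and CDC20 had a CHR word 18, 29 and 65 bases before the start and at least 1 CCAAT word farther out. CDC20 held another CHR word 178 bases and another CCAAT word 55 bases before the start. The E2F word of POLE2 began 5 bases before the start and ran across it, so only part of it is shown. MCM7 had E2F words 9 and 187 bases before the start and 2 CCAAT words between them, and another CCAAT word, which shares bases with the nearer E2F word, crosses the start. CCN2 held 3 TEAD words, 169, 104 and 95 bases before the start, and LMOD1 held 1, at 126 bases. A match to these letters is a description and shows no binding.

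Over all promoters at hand, a CHR word stood in 35.1% of 291 promoters of genes at least 4-fold lower and in 17.1% of 556 promoters of genes 2 to 4-fold lower. It stood in 11.0% of those called lower by under 2-fold, 11.5% of those not called, 8.21% of those called higher by under 2-fold, 8.62% of those 2 to 4-fold higher, and 16.6% of all 27305 promoters. In the 62 promoters of genes at least 4-fold higher the share was 17.7%, or 11 promoters. E2F words stood in 18.2%, 9.35%, 6.34%, 4.45%, 3.94% and 2.71% of the classes from the deepest falls to the 2 to 4-fold rises, and in 4.84%, or 3 promoters, of the genes at least 4-fold higher, against 3.33% of all promoters. CCAAT stood in 57.4% of the deepest class, 35.5% of those not called, 40.3% of the rises of at least 4-fold and 35.7% of all. Both a CHR and a CCAAT word stood in 25.8% of the deepest class, 4.32% of those not called and 6.58% of all promoters. TEAD words stood in 9.97% of the deepest falls, 11.2% of those not called, 14.3% of the 2 to 4-fold rises and 17.7% of the rises of at least 4-fold, where all promoters had 14.0%. AP-1 words stood in 1.72%, 3.06%, 4.19% and 3.23% of the same classes and in 4.92% of all promoters. All promoters include those of genes that were not tested. Over the 10086 promoters of tested genes, shares were 11.3% for CHR, 36.8% for CCAAT and 5.39% for E2F. For AP-1 and TEAD they were 2.91% and 10.8%. None of these shares was tested.

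**Figure D3:**
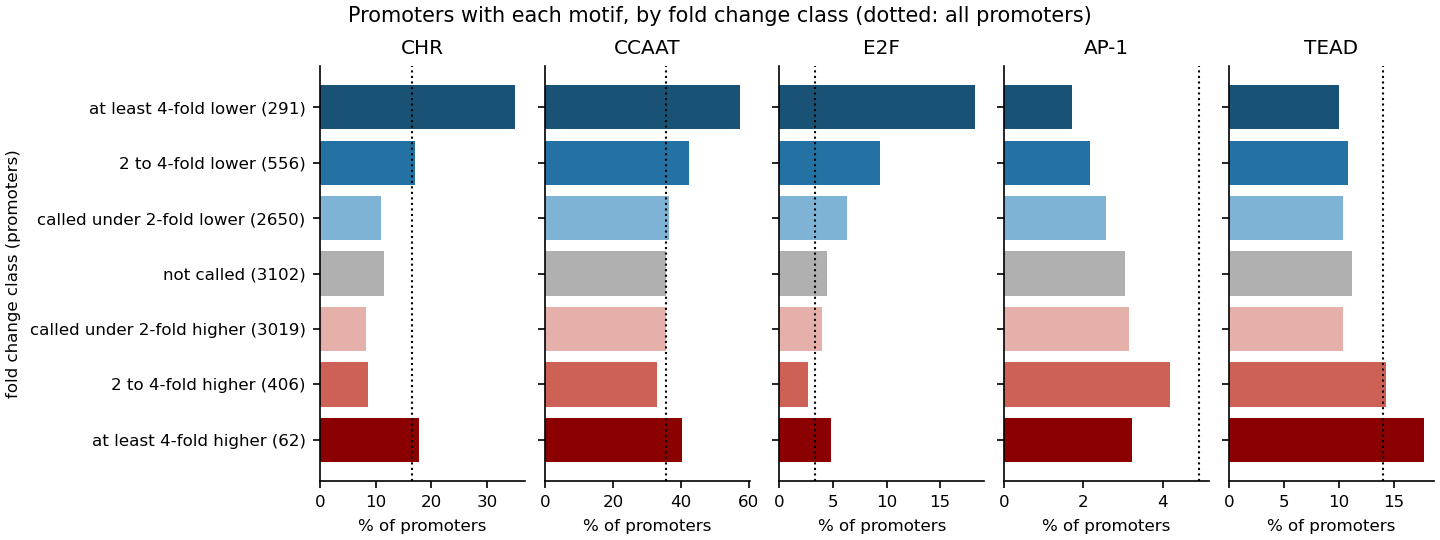
Bars give the percentage of promoters (250 bases before to 50 after the start) that hold each motif on either strand. They cover 7 classes of fold change with the number of promoters in brackets, each panel with its own axis from 0. The dotted line gives all promoters, with those of genes that were not tested. CHR, CCAAT and E2F bars are longest in the class at least 4-fold lower.

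The positions of the words were compared, without a test, between the deepest class and the genes not called. In the deepest class 14.4% of promoters had a CHR word starting within the 50 bases before the start and 11.3% one within the 50 bases after it, where promoters of genes not called had 1.32% and 0.967%. Between 250 and 200 bases before the start the 2 classes had 4.12% and 3.03%. CCAAT words were most frequent between 100 and 50 bases before the start in both, at 34.0% and 14.4%. E2F words within the last 50 bases before the start were present in 8.93% and 0.58%.

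**Figure D4:**
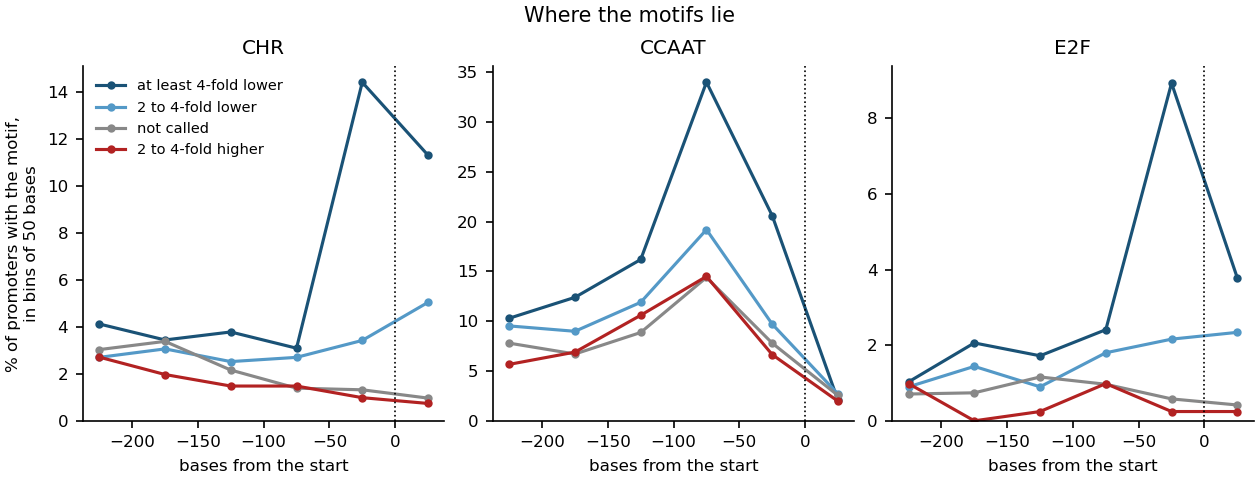
Lines give the percentage of promoters with a CHR, CCAAT or E2F word starting in each bin of 50 bases, plotted at the bin's centre against the distance from the start in bases, for 4 classes of fold change. The class at least 4-fold lower peaks just before the start for CHR (14.4%) and E2F (8.93%) and one bin farther out for CCAAT (34.0%).

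Topoisomerase II genes, which code for the drug's targets, moved unequally. TOP2A, topoisomerase II alpha of dividing cells, was at 623, 551, 563 and 537 CPM in control replicates 1 to 4 and 28.9, 31.1, 32.6 and 30.5 CPM in doxorubicin replicates 1 to 4 (adjusted p = 1.07e-17 for a log2 fold change of -4.21 ± 0.060). TOP2B, the beta form present in all cells, was at 184, 167, 168 and 164 CPM in control replicates 1 to 4 and 116, 113, 116 and 107 CPM in doxorubicin replicates 1 to 4 (adjusted p = 1.74e-08 for a log2 fold change of -0.59 ± 0.049). Neither gene had overlapping groups, and in TOP2A control replicate 1 was the highest control. Topoisomerases and adduct repair had 9 tested members, of which 1 rose, 6 fell and 2 did not pass (median log2 fold change -0.19). TDP1, which clears topoisomerase I adducts, fell from 34.9 ± 1.55 to 17.3 ± 1.75 CPM. TOP3A fell from 50.2 ± 5.37 to 24.8 ± 1.85 CPM. Doxorubicin efflux pumps and reductases had 13 tested members, of which 7 rose, 3 fell and 3 did not pass (median log2 fold change 0.18), where 34.1% of all tested genes rose and 33.9% fell. ABCC3, an export pump, rose from 4.0 ± 0.336 to 7.15 ± 0.691 CPM, ABCC5 rose from 33.1 ± 2.93 to 46.7 ± 2.97 CPM and NQO1, a quinone reductase, rose from 284 ± 23.2 to 377 ± 15.3 CPM, while CBR3, a carbonyl reductase, fell from 26.3 ± 2.78 to 9.03 ± 1.1 CPM. CBR1, the carbonyl reductase known to turn doxorubicin into doxorubicinol, rose from 86.5 ± 7.67 to 114 ± 8.22 CPM, and the pump gene ABCG2 fell from 4.12 ± 0.491 to 1.94 ± 0.359 CPM, both named after their values were seen. ABCB1, the main efflux pump for the drug, had 0 counts in every library, which allows up to 0.145 to 0.176 CPM.

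Homologous recombination fell more than end joining in the medians of the lists, a difference that was not tested. Homologous recombination and crosslink repair had 22 tested members, of which 21 fell and 1 did not pass (median log2 fold change -2.71). FANCI, of the crosslink repair complex, fell from 147 ± 2.2 to 20.2 ± 1.92 CPM, its partner FANCD2 fell from 49.5 ± 3.47 to 4.0 ± 0.658 CPM, FANCG fell from 44.4 ± 2.17 to 6.79 ± 0.591 CPM. EXO1, a resection nuclease, fell from 35.4 ± 1.0 to 3.1 ± 0.116 CPM. End joining had 13 tested members, of which 2 rose, 8 fell and 3 did not pass (median log2 fold change -0.52). RIF1, which blocks resection, fell from 112 ± 11.4 to 48.8 ± 1.18 CPM, DCLRE1C, the nuclease Artemis, fell from 17.9 ± 0.929 to 7.96 ± 1.03 CPM, PRKDC, the DNA-dependent kinase, fell from 687 ± 65.7 to 376 ± 25.7 CPM. XRCC6, Ku70, fell from 513 ± 22.9 to 342 ± 21.6 CPM. The 2 that rose were LIG4, the ligase of end joining, from 21.5 ± 1.88 to 28.5 ± 2.16 CPM, and POLL, a gap-filling polymerase, from 26.5 ± 1.44 to 34.5 ± 1.68 CPM, both named after their values were seen.

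Chromatin genes moved in both directions, and the histone genes showed it most. Both directions were also present among all tested genes, of which 34.1% rose and 33.9% fell. Histone genes with polyadenylated or constitutive transcripts had 16 tested members, of which 7 rose and 9 fell (median log2 fold change -0.63). The 7 that rose were H2AJ and 6 genes of the replication-dependent clusters, of which H2AC6 was at 3.8, 4.18, 4.26 and 5.18 CPM in control replicates 1 to 4 and 39.7, 39.8, 41.1 and 36.7 CPM in doxorubicin replicates 1 to 4 (adjusted p = 1.52e-14 for a log2 fold change of 3.17 ± 0.087). H4C8 rose from 0.69 ± 0.178 to 9.83 ± 1.14 CPM, H2BC4 rose from 0.403 ± 0.273 to 4.98 ± 0.688 CPM and H2BC21 rose from 1.91 ± 0.499 to 20.2 ± 0.481 CPM. Among the 9 that fell were H2AZ1, H2AZ2 and H2AX, which code for variants, with H2AZ1 from 491 ± 41.8 to 80.7 ± 4.13 CPM, H2AZ2 from 284 ± 6.5 to 72.1 ± 1.24 CPM and H2AX from 355 ± 23.5 to 70.4 ± 5.32 CPM. The groups of H2AC6 did not overlap, which the rule for the largest rises required. Histone genes of 1 family are near copies of each other, so reads may be split between them, and the labels do not state whether RNA was selected by its poly(A) tail. High mobility group and linker chromatin proteins had 13 tested members, of which 1 rose, 10 fell and 2 did not pass (median log2 fold change -1.07). HMGB2, whose protein bends DNA and is lost in senescence, fell from 219 ± 12.6 to 11.6 ± 0.467 CPM, HMGB3 fell from 68 ± 3.07 to 9.16 ± 0.801 CPM, HMGB1 fell from 519 ± 12.1 to 128 ± 5.21 CPM and HMGN2, which binds nucleosomes, fell from 560.2 ± 19.7 to 113 ± 2.58 CPM. The 1 that rose was the linker histone gene H1-2, from 6.5 ± 0.723 to 23.9 ± 1.83 CPM, named after its values were seen.

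Histone chaperones had 13 tested members, of which 1 rose, 11 fell and 1 did not pass (median log2 fold change -1.0). Chromatin writers and erasers had 25 tested members, of which 3 rose, 18 fell and 4 did not pass (median log2 fold change -0.6). CHAF1B, of the factor that assembles nucleosomes behind forks, fell from 44.2 ± 1.57 to 6.19 ± 0.385 CPM, CHAF1A fell from 81.2 ± 4.98 to 15.1 ± 0.646 CPM, ASF1B fell from 77.2 ± 4.96 to 7.89 ± 1.49 CPM and NASP, which holds free histones, fell from 127 ± 1.96 to 28.2 ± 1.94 CPM. EZH2, the methyltransferase of Polycomb, fell from 62.1 ± 4.67 to 6.29 ± 0.496 CPM. UHRF1, which guides maintenance methylation, fell from 226 ± 9.98 to 31.4 ± 1.58 CPM. DNMT1, the maintenance methyltransferase, fell from 330.3 ± 11.2 to 101 ± 4.82 CPM. CBX5, heterochromatin protein 1 alpha, fell from 488 ± 37 to 177 ± 6.69 CPM. Of all tested genes, 33.9% were called lower.

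At the nuclear envelope LMNB1, lamin B1, was at 179.5, 179, 189.5 and 184 CPM in control replicates 1 to 4 and 8.16, 9.94, 6.74 and 8.37 CPM in doxorubicin replicates 1 to 4 (adjusted p = 6.97e-17 for a log2 fold change of -4.46 ± 0.077). Its 4 doxorubicin values all lay far below the control range. Nuclear lamina and envelope had 14 tested members, of which 1 rose, 9 fell and 4 did not pass (median log2 fold change -0.9). TMPO, lamina-associated polypeptide 2, fell from 300.2 ± 8.58 to 38.8 ± 2.4 CPM, LBR, the lamin B receptor, fell from 156 ± 5.23 to 52.6 ± 1.98 CPM. NRM, nurim, fell from 46.7 ± 1.49 to 9.67 ± 0.546 CPM. All 22 nuclear pore and importin genes fell, with a median of -1.06. KPNA2, an importin alpha, fell from 411 ± 5.16 to 116 ± 7.41 CPM, NUP107, of the pore scaffold, fell from 68.4 ± 2.85 to 23.5 ± 1.63 CPM, CSE1L, which recycles importins, fell from 234 ± 12.1 to 101 ± 4.33 CPM, and the exportin XPO1 fell from 368 ± 19.7 to 177 ± 9.57 CPM.

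Splicing factor genes fell in all but 1 tested member. This list and the next 3 are read against all tested genes, of which 34.1% rose and 33.9% fell. Splicing factors had 23 tested members, of which 22 fell and 1 did not pass (median log2 fold change -0.85). HNRNPD, an RNA-binding protein, fell from 347 ± 19.7 to 123 ± 4.03 CPM, HNRNPF fell from 300.5 ± 6.0 to 138 ± 2.4 CPM, HNRNPA2B1 fell from 989 ± 20.4 to 423 ± 6.43 CPM and SRSF1, a serine- and arginine-rich splicing factor, fell from 352 ± 9.34 to 171 ± 4.71 CPM. Ribosome biogenesis and RNA polymerase I had 26 tested members, of which 5 rose, 16 fell and 5 did not pass (median log2 fold change -0.22). FBL, fibrillarin of the nucleolus, fell from 118 ± 10.3 to 46.8 ± 1.64 CPM, UBTF, a factor of RNA polymerase I, fell from 143 ± 5.01 to 83.6 ± 2.52 CPM. RRP12 rose from 75.6 ± 3.71 to 120.5 ± 6.97 CPM. Mitochondrial ribosomal proteins had 25 tested members, of which 2 rose, 11 fell and 12 did not pass (median log2 fold change -0.13), among them MRPL11, which fell from 43.6 ± 4.39 to 29.8 ± 1.61 CPM. Aminoacyl-tRNA synthetases had 20 tested members, of which 11 rose, 4 fell and 5 did not pass (median log2 fold change 0.16). HARS1, which charges histidine tRNA, rose from 97.1 ± 4.24 to 127 ± 4.07 CPM, FARSA rose from 99.8 ± 7.46 to 132 ± 3.67 CPM. AARS1 fell from 173 ± 6.57 to 123 ± 2.76 CPM.

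**Figure D5:**
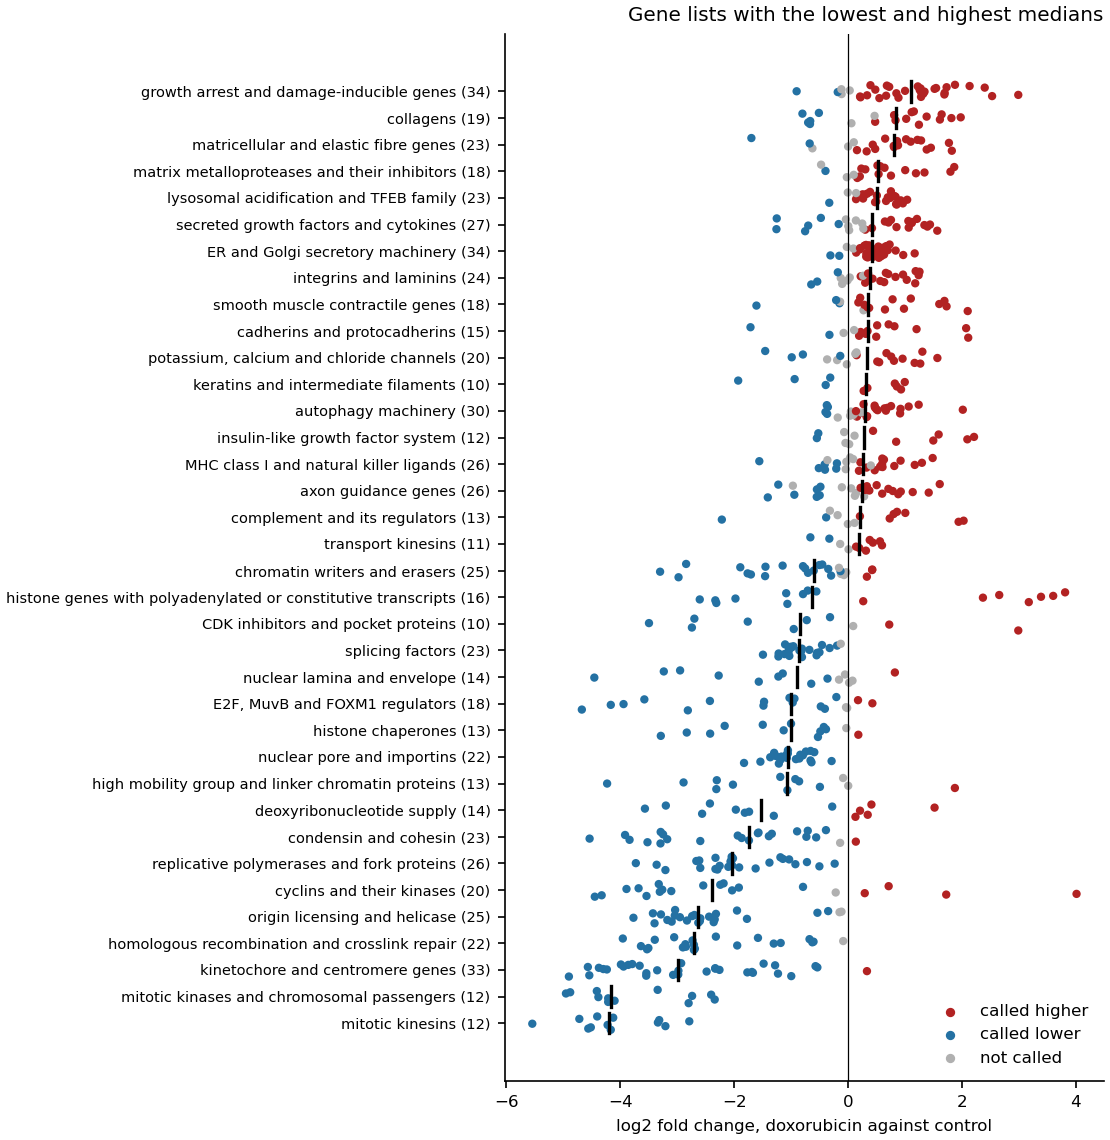
Each point is the log2 fold change of 1 tested gene of a list, red where called higher, blue where called lower and grey where not called, with the list's median as a black bar and the number of tested members in brackets, for the 18 lists with the lowest and the 18 with the highest medians among those with at least 10 tested members. The lists of mitotic kinesins and kinases lie near -4, while most rising lists have medians under 1.

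Over the 67 lists with at least 5 tested members, most of the tested members were called lower in 27 lists and higher in 18. The 72 lists held 1303 different tested genes, of which 455 rose, 597 fell and 251 did not pass, where 34.1% of all tested genes rose and 33.9% fell.

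Genes of secreted factors rose in most tested members. Secreted growth factors and cytokines had 27 tested members, of which 15 rose, 6 fell and 6 did not pass (median log2 fold change 0.42), where 34.1% of all genes rose. BDNF, a neurotrophin, rose from 28.6 ± 2.36 to 84.7 ± 2.52 CPM (adjusted p = 1.12e-12 for a log2 fold change of 1.57 ± 0.060), HBEGF, an EGF receptor ligand, rose from 38.8 ± 3.07 to 105 ± 2.0 CPM, FGF2 rose from 143 ± 6.71 to 375 ± 13.5 CPM. GREM1, an antagonist of BMP ligands, rose from 493 ± 5.69 to 1248 ± 33.6 CPM. IL6 rose from 1.42 ± 0.376 to 3.1 ± 0.287 CPM, and the 6 that fell were led in size by BMP6, from 3.23 ± 0.588 to 1.35 ± 0.53 CPM, all named after their values were seen. Several known factors of arrested cells were too low to be tested, among them GDF15 (11 control and 15 doxorubicin counts) and CXCL8 (11 and 10 counts), also named after their values were seen. In the insulin-like growth factor system 6 rose, 2 fell and 4 did not pass. IGFBP5, which binds these growth factors, was at 28.6, 27.4, 23.8 and 22.5 CPM in control replicates 1 to 4 and 127, 115, 116 and 115 CPM in doxorubicin replicates 1 to 4 (adjusted p = 9.61e-14 for a log2 fold change of 2.21 ± 0.070). IGFBP3 rose from 119 ± 5.2 to 509 ± 28.5 CPM, IGFBP7 rose from 835 ± 82.9 to 2512 ± 111 CPM and IGFBP2 rose from 6.45 ± 0.721 to 18.2 ± 1.93 CPM. IGFBP5 did not overlap between the groups.

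Plasminogen activators and serpins had 17 tested members, of which 6 rose, 5 fell and 6 did not pass (median log2 fold change 0.06), and that median was negative with library totals alone. Their counts lay near the shares of all tested genes, of which 34.1% rose and 33.9% fell. PLAT, which codes for the tissue-type activator, rose from 65.6 ± 1.59 to 269.7 ± 7.51 CPM, F3, tissue factor, rose from 333 ± 9.12 to 623 ± 11.7 CPM. THBD, thrombomodulin, fell from 52.1 ± 2.83 to 15.7 ± 2.24 CPM. Matrix metalloproteases and their inhibitors had 18 tested members, of which 14 rose, 1 fell and 3 did not pass (median log2 fold change 0.53). ADAMTS5, an aggrecanase, rose from 7.51 ± 0.80 to 26 ± 1.14 CPM, ADAMTS12 rose from 147 ± 10.6 to 373 ± 8.5 CPM, ADAMTS1 rose from 163 ± 4.44 to 371 ± 6.88 CPM and MMP14, a membrane-bound collagenase, rose from 1023 ± 48.2 to 2050.2 ± 38.7 CPM.

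Matrix genes rose in most tested members. Collagens had 19 tested members, of which 12 rose, 5 fell and 2 did not pass (median log2 fold change 0.83). COL4A1, of basement membranes, rose from 249 ± 5.9 to 761 ± 30.7 CPM, COL4A5 rose from 31.7 ± 1.5 to 82.4 ± 3.13 CPM, COL4A4 rose from 9.95 ± 0.726 to 39.2 ± 2.46 CPM and COL8A1, a short-chain collagen, rose from 392 ± 12.2 to 849.7 ± 9.49 CPM. Among the 5 that fell were COL1A1, the main collagen of fibrils, from 28.9 ± 2.67 to 18.2 ± 1.49 CPM, and COL6A3, from 6.6 ± 0.917 to 3.78 ± 0.567 CPM, both named after their values were seen. Integrins and laminins had 24 tested members, of which 16 rose, 3 fell and 5 did not pass (median log2 fold change 0.39). LAMC1, a laminin chain of basement membranes, rose from 417 ± 28.9 to 994 ± 33.9 CPM, ITGA11, a collagen-binding integrin, rose from 265 ± 22.2 to 599 ± 32 CPM, ITGB5 rose from 582 ± 16.6 to 1036 ± 5.62 CPM and ITGA7, a laminin receptor, rose from 160.3 ± 6.59 to 327 ± 11 CPM. Matricellular and elastic fibre genes had 23 tested members, of which 18 rose, 2 fell and 3 did not pass (median log2 fold change 0.81). CCN2, a matricellular growth factor, was at 395, 403, 436 and 417 CPM in control replicates 1 to 4 and 1466, 1489, 1508 and 1370.4 CPM in doxorubicin replicates 1 to 4 (adjusted p = 4.09e-15 for a log2 fold change of 1.82 ± 0.045). EFEMP1, fibulin 3, rose from 138 ± 3.54 to 358 ± 14.6 CPM, SPARC rose from 651 ± 22.8 to 1582 ± 23.8 CPM and THBS1, thrombospondin 1, rose from 2872 ± 158 to 5817 ± 106 CPM. The groups of CCN2 did not overlap. TNC, tenascin C, fell from 159 ± 17.2 to 49 ± 6.02 CPM, named after its values were seen.

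Most contractile genes rose. Smooth muscle contractile genes had 18 tested members, of which 13 rose, 3 fell and 2 did not pass (median log2 fold change 0.35). LMOD1, leiomodin 1, which nucleates actin filaments in smooth muscle, was at 19, 22.2, 19.4 and 22.2 CPM in control replicates 1 to 4 and 72.7, 65.3, 67.5 and 68.9 CPM in doxorubicin replicates 1 to 4 (adjusted p = 9.12e-13 for a log2 fold change of 1.73 ± 0.066). ACTA2, an actin of smooth muscle, rose from 31.9 ± 1.31 to 137 ± 8.84 CPM, TAGLN rose from 339 ± 23 to 1095 ± 38.1 CPM and MYL9, a myosin light chain, rose from 264 ± 13.7 to 802 ± 20.9 CPM. Every doxorubicin library of LMOD1 lay above every control library. MYH11, the smooth muscle myosin heavy chain, fell from 1.2 ± 0.402 to 0.395 ± 0.179 CPM and is named with its values already seen. Keratins and intermediate filaments had 10 tested members, of which 6 rose and 4 fell (median log2 fold change 0.31). KRT8 rose from 346 ± 22.5 to 626 ± 9.79 CPM and KRT18, its partner, rose from 261 ± 15.6 to 497 ± 12.2 CPM, while NES, nestin, fell from 11.8 ± 1.39 to 3.1 ± 0.344 CPM and SYNM, synemin, fell from 40.7 ± 2.12 to 21.3 ± 2.68 CPM. Tubulins had 15 tested members, of which 6 rose, 6 fell and 3 did not pass (median log2 fold change 0.03), a median that was negative with library totals alone and without doxorubicin replicate 4. Beside them, 34.1% of all tested genes rose and 33.9% fell. TUBA1B fell from 3174 ± 144 to 1328 ± 35.8 CPM and TUBB4B fell from 927 ± 43.8 to 508 ± 15.4 CPM, while TUBA4A rose from 48.9 ± 3.5 to 95.6 ± 3.8 CPM and TUBB2A rose from 51.6 ± 5.91 to 130.2 ± 3.73 CPM. TUBB2A and other tubulins have near-identical copies, so their reads are uncertain.

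Signalling lists held changes in both directions, as did all tested genes, of which 34.1% rose and 33.9% fell. YAP and TEAD genes and targets had 23 tested members, of which 11 rose, 6 fell and 6 did not pass (median log2 fold change 0.09), a median that was negative with library totals alone. ANKRD1, a target of YAP, rose from 567 ± 25.2 to 1510.3 ± 63.1 CPM, AMOTL2 rose from 184 ± 2.46 to 294 ± 13 CPM and NF2, an upstream inhibitor, rose from 153 ± 5.85 to 273 ± 9.14 CPM. TGF-beta and BMP signalling had 24 tested members, of which 4 rose, 14 fell and 6 did not pass (median log2 fold change -0.3). TGFB2, a ligand, rose from 203 ± 7.55 to 546 ± 20.3 CPM, SMURF2, a ligase that limits the receptors, rose from 125 ± 5.01 to 303 ± 7.66 CPM, SMAD3 fell from 207 ± 7.03 to 129 ± 5.85 CPM and the inhibitor SMAD6 fell from 34.6 ± 1.22 to 18.4 ± 0.838 CPM. WNT signalling had 25 tested members, of which 8 rose, 14 fell and 3 did not pass (median log2 fold change -0.35). SHISA2, which retains Frizzled receptors, fell from 58.7 ± 3.15 to 17.4 ± 1.18 CPM, the ligand gene WNT5B rose from 280.5 ± 21.4 to 523 ± 14 CPM, DKK3 rose from 430.2 ± 10.5 to 891 ± 8.4 CPM and the receptor gene LRP5 rose from 62.2 ± 2.55 to 116 ± 4.7 CPM. AXIN2, a feedback target of WNT, fell from 2.13 ± 0.239 to 0.636 ± 0.248 CPM and is named with its values already seen.

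Notch signalling had 15 tested members, of which 5 rose, 9 fell and 1 did not pass (median log2 fold change -0.52). All tested genes had 34.1% that rose and 33.9% that fell, and the rises of this list lay near the first share. The 4 with the smallest p were NEURL1B, given above, LFNG, a glycosyltransferase of the receptors, which fell from 6.66 ± 0.477 to 1.52 ± 0.269 CPM, the ligand gene JAG1, which rose from 22.1 ± 0.753 to 32.6 ± 2.14 CPM, and the coactivator gene MAML1, which fell from 48.4 ± 4.57 to 33.7 ± 1.32 CPM. NOTCH3, a receptor of mural cells, was at 0.759, 0.542, 0.533 and 0.296 CPM in control replicates 1 to 4 and 2.41, 1.84, 2.52 and 2.46 CPM in doxorubicin replicates 1 to 4 (adjusted p = 6.92e-06 for a log2 fold change of 2.1 ± 0.29). Its levels were low in both groups, which did not overlap. The targets HES1 and HEY1 fell from 4.85 ± 0.676 to 1.93 ± 0.291 CPM and from 0.758 ± 0.138 to 0.29 ± 0.0662 CPM, and these 3 were named after their values were seen.

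Growth factor feedback on MAPK had 23 tested members, of which 9 rose, 7 fell and 7 did not pass (median log2 fold change -0.01). Among all tested genes 34.1% rose and 33.9% fell, near the counts of this list. The receptor and regulator lists below are read against the same shares. DUSP1, a phosphatase of MAP kinases, rose from 52.3 ± 2.3 to 147 ± 5.13 CPM, DUSP5 rose from 33.9 ± 2.8 to 78.4 ± 2.53 CPM, and the transcription factor genes ETV4 and FOSL1 fell from 10.1 ± 0.812 to 1.86 ± 0.349 CPM and from 321 ± 11.6 to 191 ± 6.06 CPM. Receptor tyrosine kinases had 19 tested members, of which 6 rose, 8 fell and 5 did not pass (median log2 fold change -0.09). DDR1, a collagen receptor, rose from 95.5 ± 3.8 to 193 ± 2.9 CPM, AXL fell from 1182 ± 31.6 to 651 ± 9.16 CPM and TYRO3 fell from 51.1 ± 2.03 to 26.8 ± 1.2 CPM. G-protein signalling regulators had 20 tested members, of which 7 rose, 9 fell and 4 did not pass (median log2 fold change -0.05). S1PR1, a receptor for sphingosine phosphate, rose from 2.31 ± 0.424 to 8.84 ± 0.589 CPM, GPRC5A rose from 148 ± 4.33 to 438 ± 5.95 CPM, RGS3 rose from 93.8 ± 5.02 to 145 ± 4.34 CPM and RGS12 fell from 32.4 ± 1.27 to 16 ± 1.96 CPM.

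Lists of contact and excitability genes are read against all tested genes, of which 34.1% rose and 33.9% fell. Cadherins and protocadherins had 15 tested members, of which 11 rose, 2 fell and 2 did not pass (median log2 fold change 0.34). PCDH10 rose from 52.6 ± 2.14 to 221 ± 10 CPM, CDH10 rose from 10.6 ± 0.763 to 45.7 ± 1.98 CPM, PCDHGC3 rose from 125 ± 6.83 to 205 ± 5.58 CPM and PCDH18 fell from 12.1 ± 0.529 to 3.68 ± 0.475 CPM. Axon guidance genes had 26 tested members, of which 13 rose, 7 fell and 6 did not pass (median log2 fold change 0.25). SLIT3, a ligand of Robo receptors, rose from 41.1 ± 1.42 to 125 ± 4.33 CPM, PLXNA3 and PLXNB2, semaphorin receptors, rose, the first from 52 ± 4.43 to 139 ± 10 CPM and the other from 340.2 ± 6.83 to 646 ± 20 CPM. NTN4, a netrin, rose from 109 ± 4.39 to 201 ± 2.84 CPM. Potassium, calcium and chloride channels had 20 tested members, of which 11 rose, 4 fell and 5 did not pass (median log2 fold change 0.33). CACNA2D1, a calcium channel subunit, rose from 75 ± 6.28 to 168 ± 8.28 CPM, KCNJ2, an inward rectifier, rose from 12.6 ± 0.738 to 24.4 ± 1.61 CPM, KCNK6 rose from 68.9 ± 2.91 to 116 ± 3.38 CPM and KCNK2 fell from 33.5 ± 1.54 to 16.8 ± 0.544 CPM. Gap junction and claudin genes had 11 tested members, of which 4 rose, 4 fell and 3 did not pass (median log2 fold change 0.09), with a negative median under library totals alone, and these counts lay near the shares of all genes. GJA1, connexin 43, rose from 319.8 ± 5.0 to 505 ± 15.5 CPM, F11R rose from 18.6 ± 1.17 to 29.1 ± 1.99 CPM and GJC1 fell from 129 ± 8.72 to 55.9 ± 3.15 CPM.

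Genes of the secretory pathway rose in nearly every tested member, mostly by under 2-fold. ER and Golgi secretory machinery had 34 tested members, of which 30 rose, 2 fell and 2 did not pass (median log2 fold change 0.42). GOLGA2, a Golgi matrix protein, rose from 70.3 ± 2.87 to 138 ± 3.43 CPM, KDELR3, which returns proteins to the endoplasmic reticulum, rose from 18.3 ± 0.496 to 41.1 ± 1.4 CPM, SEC31A, of the COPII coat, rose from 170.4 ± 12.1 to 304 ± 12 CPM and SEC61A1, the translocon channel, rose from 611 ± 18.6 to 990.1 ± 21.5 CPM. Lysosomal acidification and TFEB family had 23 tested members, of which 20 rose, 1 fell and 2 did not pass (median log2 fold change 0.5). ATP6V0A1 and ATP6V1A, of the proton pump, rose, the first from 54.5 ± 1.67 to 106 ± 3.19 CPM and the other from 93.3 ± 1.55 to 191 ± 8.48 CPM, and its accessory subunits ATP6AP1 and ATP6AP2 rose, the first from 107 ± 1.8 to 194 ± 0.946 CPM and the other from 75.4 ± 0.776 to 135 ± 9.39 CPM. Autophagy machinery had 30 tested members, of which 20 rose, 4 fell and 6 did not pass (median log2 fold change 0.3). GABARAPL1, a protein of the autophagosome membrane, was at 6.02, 5.15, 7.17 and 6.66 CPM in control replicates 1 to 4 and 26.2, 27, 24.4 and 23.6 CPM in doxorubicin replicates 1 to 4 (adjusted p = 1.44e-11 for a log2 fold change of 2.01 ± 0.095). SQSTM1, the receptor p62, rose from 511 ± 28.6 to 1068 ± 21.5 CPM, NBR1, another receptor, rose from 119.8 ± 3.39 to 193 ± 3.23 CPM and WIPI1, which reads the lipid of forming autophagosomes, rose from 18.4 ± 1.23 to 43.4 ± 2.68 CPM. The groups of GABARAPL1 did not overlap. Proteasome had 27 tested members, of which 4 rose, 9 fell and 14 did not pass (median log2 fold change -0.01), and of the 4 with the smallest p, PSMB5 and PSMC4 rose while PSMC3 and PSMC6 fell, all by under 0.5 on the log2 scale. Beside these lists, 34.1% of all tested genes rose and 33.9% fell, and the falls of the proteasome list lay near the latter share.

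Most genes for building purines and pyrimidines fell. Purine and pyrimidine synthesis had 17 tested members, of which 1 rose, 14 fell and 2 did not pass (median log2 fold change -0.52). GMPS, which makes GMP, fell from 122 ± 4.23 to 57.1 ± 2.38 CPM, PAICS, of purine synthesis, fell from 252 ± 9.08 to 123 ± 6.44 CPM, and the phosphoribosyl pyrophosphate synthetases split, of which PRPS2 fell from 41.7 ± 2.06 to 18.5 ± 1.62 CPM and PRPS1 rose from 121 ± 8.7 to 287 ± 9.1 CPM. ATF4 targets and serine synthesis had 21 tested members, of which 5 rose, 12 fell and 4 did not pass (median log2 fold change -0.25). PHGDH, the first enzyme of serine synthesis, fell from 158 ± 10.4 to 38.8 ± 1.95 CPM, SHMT1 and MTHFD1, of folate metabolism, fell from 38.3 ± 2.16 to 13.5 ± 1.34 CPM and from 235 ± 1.22 to 131 ± 6.29 CPM. SESN2, which is also in the damage list, rose from 14.9 ± 0.583 to 43.6 ± 1.4 CPM. Amino acid transporters had 17 tested members, of which 7 rose, 7 fell and 3 did not pass (median log2 fold change 0.02), and that median was negative with library totals alone. SLC7A5, a transporter of large neutral amino acids, rose from 401 ± 10.7 to 929.7 ± 31.5 CPM, its partner SLC3A2 rose from 186 ± 16 to 305 ± 6.3 CPM, SLC1A5, a glutamine transporter, fell from 178 ± 7.74 to 112 ± 1.41 CPM and SLC6A9, a glycine transporter, fell from 18 ± 1.43 to 7.7 ± 0.658 CPM. Glycolysis and the tricarboxylic acid cycle had medians of 0.01 and 0.04, both negative with library totals alone. Of the glycolysis list 9 rose, 6 fell and 9 did not pass, and of the cycle's 7 rose, 7 fell and 8 did not pass. Over all tested genes 34.1% rose and 33.9% fell, and the cycle's counts lay near those shares. ALDOA, an aldolase, rose from 1119.7 ± 62.3 to 1612 ± 24.3 CPM, ENO1, an enolase, fell from 2643 ± 142 to 1729 ± 38.6 CPM and SDHA fell from 163 ± 5.54 to 115 ± 4.63 CPM.

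Among genes of survival and death proteins calls were about as frequent as among all genes, of which 68.0% were called. BCL2 family had 14 tested members, of which 6 rose, 3 fell and 5 did not pass (median log2 fold change 0.06), with a negative median under library totals alone. BCL2, an inhibitor of apoptosis, was at 19.1, 19, 17.1 and 18.6 CPM in control replicates 1 to 4 and 3.62, 3.98, 3.62 and 4.56 CPM in doxorubicin replicates 1 to 4 (adjusted p = 6.39e-12 for a log2 fold change of -2.23 ± 0.098), and BCL2L1, which codes for the inhibitor BCL-XL, rose from 162 ± 7.65 to 314 ± 5.35 CPM (adjusted p = 8.92e-12 for a log2 fold change of 0.96 ± 0.043). The killers BCL2L11, BIM, and BMF fell from 9.47 ± 1.03 to 1.9 ± 0.71 CPM and from 33 ± 1.91 to 11.1 ± 1.04 CPM. BBC3, PUMA, rose from 4.89 ± 0.48 to 11.9 ± 1.98 CPM and is named with its values already seen. Neither BCL2 nor BCL2L1 had overlapping groups.

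Interferon and DNA-sensing genes had 23 tested members, of which 7 rose, 8 fell and 8 did not pass (median log2 fold change -0.13), close to the 34.1% and 33.9% of all tested genes that rose and fell. OAS3, an interferon-induced synthetase, fell from 37 ± 2.6 to 8.77 ± 1.14 CPM, RIGI, a sensor of viral RNA, rose from 18.5 ± 1.82 to 39.8 ± 5.5 CPM and STAT2 rose from 70.1 ± 0.722 to 95 ± 4.01 CPM. MHC class I and natural killer ligands had 26 tested members, of which 14 rose, 6 fell and 6 did not pass (median log2 fold change 0.27). MICA, a ligand of the natural killer receptor NKG2D, rose from 65.5 ± 3.07 to 147 ± 6.83 CPM, PVR, a ligand of DNAM-1, rose from 254 ± 7.52 to 480.3 ± 13.9 CPM. PDCD1LG2, the checkpoint ligand PD-L2, rose from 17.8 ± 1.18 to 43.6 ± 3.39 CPM. Complement and its regulators had 13 tested members, of which 7 rose, 2 fell and 4 did not pass (median log2 fold change 0.21). C5, a complement component, was at 15.5, 13.5, 12.3 and 14.7 CPM in control replicates 1 to 4 and 2.81, 3.36, 2.96 and 2.87 CPM in doxorubicin replicates 1 to 4 (adjusted p = 6.36e-11 for a log2 fold change of -2.22 ± 0.12). The groups of C5 lay apart. C1S, a protease of the classical pathway, rose from 2.86 ± 0.575 to 11 ± 1.35 CPM and CD46, a membrane inhibitor, rose from 117 ± 7.26 to 194 ± 8.52 CPM.

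For the lists of transcription factors and of the cilium, the shares of all tested genes were 34.1% that rose and 33.9% that fell. Kruppel-like and FOXO factors had 16 tested members, of which 3 rose, 6 fell and 7 did not pass (median log2 fold change -0.01), a median whose sign changed with 6 alternatives. KLF11 fell from 9.04 ± 1.22 to 3.17 ± 1.07 CPM, KLF6 fell from 139.5 ± 2.04 to 84.2 ± 4.9 CPM, KLF3 fell from 29.8 ± 3.38 to 19.2 ± 0.931 CPM and KLF10 fell from 39 ± 2.01 to 31.6 ± 1.16 CPM. Circadian clock had 19 tested members, of which 3 rose, 9 fell and 7 did not pass (median log2 fold change -0.41). BMAL2 fell from 119 ± 8.79 to 44 ± 0.87 CPM, PER3 fell from 25 ± 1.83 to 9.95 ± 1.1 CPM, NR1D2 fell from 71.7 ± 5.03 to 48.7 ± 2.8 CPM and NPAS2 rose from 25.3 ± 3.34 to 42.1 ± 1.63 CPM. Nuclear and steroid receptors had 22 tested members, of which 7 rose, 7 fell and 8 did not pass (median log2 fold change -0.06), counts near the shares of all tested genes. NR3C1, the glucocorticoid receptor, fell from 104 ± 5.17 to 68.3 ± 3.4 CPM, RARA and PPARD fell from 70 ± 4.63 to 47.5 ± 2.16 CPM and from 112 ± 4.11 to 76.9 ± 5.52 CPM. RARB, another retinoic acid receptor, rose from 45.9 ± 2.31 to 70.6 ± 2.76 CPM. Primary cilium had 26 tested members, of which 12 rose, 9 fell and 5 did not pass (median log2 fold change 0.15). BBS1, of the complex that moves cargo into cilia, rose from 12.8 ± 0.599 to 23.2 ± 0.912 CPM, while TTC21B, TULP3 and IFT81 fell from 29.7 ± 2.85 to 17.6 ± 1.15 CPM, from 46.8 ± 3.0 to 31.6 ± 1.48 CPM and from 21.6 ± 1.34 to 13.8 ± 0.455 CPM.

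Markers of cell types followed no single direction, and neither did all tested genes, of which 34.1% rose and 33.9% fell. Of the retinal pigment epithelium list, OTX2, an eye transcription factor, fell from 17.9 ± 0.895 to 11.3 ± 0.694 CPM. MERTK, a receptor for engulfing photoreceptor debris, fell from 2.99 ± 0.572 to 1.73 ± 0.341 CPM, and the other 3 tested members did not pass. Mesenchymal markers had 12 tested members, of which 4 rose, 6 fell and 2 did not pass (median log2 fold change -0.14). FN1, fibronectin, rose from 7235 ± 765 to 12605 ± 694 CPM, THY1 rose from 423 ± 13.9 to 691 ± 10.2 CPM, TWIST1 fell from 23.1 ± 3.09 to 13 ± 1.06 CPM and PRRX1 fell from 39.1 ± 2.37 to 27.4 ± 1.64 CPM. KRT15 was the only tested gene of the epithelial list and rose from 3.58 ± 0.511 to 9.19 ± 0.344 CPM. Among its members with too few counts to test, CLDN4 had 53 counts over the control libraries and 15 over the doxorubicin libraries, and ESRP2 had 18 and 5. CSF1R, of the immune list, fell from 3.48 ± 0.544 to 1.22 ± 0.517 CPM. CD68, a lysosomal protein on the same list, rose from 65.2 ± 3.56 to 75.1 ± 3.53 CPM, a call lost with library totals alone (adjusted p = 0.352). EGFL7 and KDR, of the endothelial list, rose from 5.17 ± 1.7 to 10.5 ± 0.581 CPM and fell from 4.07 ± 0.734 to 1.46 ± 0.234 CPM. TUBB3, of the neuronal list, rose from 424 ± 34.4 to 495 ± 12.9 CPM, a call lost with library totals alone (adjusted p = 0.202). Of 33 long noncoding RNA genes only 1, TUG1, had a row in the table, so nothing is known here of the levels of the others. TUG1 did not pass but was called higher without control replicate 1 (log2 fold change 0.16, adjusted p = 0.00489 in edgeR's quasi-likelihood test).

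The largest gains and losses in amount of RNA were ranked by the change in CPM. MT-CO1 and MT-ND4, of the mitochondrial genome, rose, the first from 8539 ± 259 to 14731 ± 256 CPM and the other from 3545 ± 243 to 5056 ± 167 CPM. FN1, CCND1, THBS1 and IGFBP7, all given above, were also among the 8 largest gains, as was FTH1, the ferritin heavy chain, which rose from 2291 ± 87 to 3991 ± 197 CPM. The 8 largest losses were in TUBA1B, ENO1, MKI67, HNRNPA2B1, TOP2A, VIM, TUBB and PTMA. VIM, vimentin, fell from 7616 ± 243 to 6125 ± 285 CPM (log2 fold change -0.31 ± 0.040), TUBB, a beta-tubulin, fell from 2946 ± 45.2 to 2064 ± 50.9 CPM. PTMA, prothymosin alpha, fell from 922 ± 54.2 to 316 ± 4.53 CPM. MKI67, the proliferation antigen Ki-67, was at 946, 761, 674 and 691 CPM in control replicates 1 to 4 and 34.9, 31.7, 26.3 and 34.8 CPM in doxorubicin replicates 1 to 4 (adjusted p = 3.27e-15 for a log2 fold change of -4.59 ± 0.11). Control replicate 1 was the highest of the controls for MKI67, and the groups were far apart with or without it. Both MKI67 and TOP2A (log2 fold change -4.21) were large in fold as well as in CPM.

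Of the called genes, 5 named by the rule had at most 3 counts over all libraries of 1 group. SULF2, a sulfatase that edits heparan sulfate, was at 0, 0, 0.0484 and 0 CPM in control replicates 1 to 4 and 2.7, 2.09, 1.37 and 1.87 CPM in doxorubicin replicates 1 to 4, from 1 control count against 145. CLCA2, a regulator of chloride channels, was at 0.0506, 0.0542, 0 and 0.0493 CPM in control replicates 1 to 4 and 0.919, 1.33, 1.32 and 1.11 CPM in doxorubicin replicates 1 to 4, from 3 control counts against 85. FOXQ1, a forkhead factor, was at 0.607, 1.63, 0.92 and 1.38 CPM in control replicates 1 to 4 and 0, 0, 0.0548 and 0 CPM in doxorubicin replicates 1 to 4, from 89 counts against 1. In these 3 genes no library of one group reached the range of the other. The rule, which took called genes with at most 3 counts in 1 group, largely fixed that separation, and the counts are few. The pseudogene SPCS2P4 had 0 control counts and 127 doxorubicin counts and was at least 46.4-fold higher, taking 3 counts over the control group as the limit, and ZBTB45P2 had 76 control counts and 0 and was at least 23.2-fold lower. Pseudogenes share reads with their parent genes, so both are uncertain. The same holds for the called genes with no protein-coding biotype and the smallest p, of which HMGB1P5, HMGB1P6, DDX12P, H3P6, AFG3L1P and SMPD4BP fell and RPL23AP82 and ZNF271P rose, with log2 fold changes from -2.97 to 1.15. HMGB1, the parent of the first 2, fell as well.

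Shares of calls differed with the level of a gene, which also sets the precision of its test. Genes were cut by mean level into 5 classes of equal size. In the highest class 52.8% rose and 29.2% fell, and in the lowest 17.9% rose and 26.4% fell, with median log2 fold changes of 0.15 and -0.14. At least 2-fold falls made up 14.2% of the lowest class and 4.39% of the highest. By length, 12431 tested protein-coding genes with a position in GENCODE 29 were cut into 5 classes of their span. The shortest class, of up to 11.2 kb, had 37.0% higher and 30.3% lower (median 0.04), the class from 48.3 to 103 kb had 32.4% and 37.4% (median -0.04), and the longest, up to 2240.0 kb, had 33.9% each (median 0.00). Over the chromosomes described here, chromosome 21 had the smallest share of genes called higher (27.9%) and the X chromosome the largest (39.5%), and the median ran from -0.08 on chromosome 15 to 0.08 on X. All 13 mitochondrial genes were called higher, with a median of 0.57.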

How the data were processed

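RNA from RPE1 cells was sequenced as paired reads by a kit that does not mark strand, so genes that overlap cannot be told apart. The authors deposited whole-number counts per gene identifier. Salmon, DESeq2 and GRCh38 stand in the submitters' processing notes without versions or roles, and the annotation release and rounding are not given in the sources used here. Column names give the group and a number, not the sample title. Identifiers with the same gene name were summed, from 22498 to 21599 rows, and 1935 identifiers had no name.

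Counts of 8 libraries were fitted with edgeR 4.0.16 in R 4.3.3, with TMM scaling, filterByExpr (minimum count 10, minimum total 15), the quasi-likelihood test and Benjamini-Hochberg adjustment. Calls took an adjusted p under 0.05. Standard errors were derived from the fold change and the square root of F. The fit was tested on simulated data in which few genes changed, evenly up and down, with 1 setting for the spread between replicates. Most genes differed in the real data, so that test does not cover their scaling. Positions came from GENCODE 29 and promoters from RefSeq. CPM levels compare libraries, not genes. Named genes were the 12 largest rises and 12 largest falls whose groups do not overlap and whose mean log2 CPM was 1 or more, the 8 largest gains and losses in CPM, up to 4 called members of each list with the smallest p, CDKN1A, MKI67 and LMNB1, up to 8 genes with at most 3 counts in a group, and up to 8 without a protein-coding biotype. Some genes that meet the rule are not reported here. Genes, lists and tests were chosen with earlier results of these data known.

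Replicate numbers were not taken as pairs: libraries with the same number had correlations of their deviations from -0.0393 to 0.107, and those with other numbers from -0.106 to 0.106. Alternatives changed the scaling, the test (DESeq2 1.42.0), the filter, the libraries, the summing and the block. Limits from a count of 0 take 3 counts and cover counting error only.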

Additional observations from a re-analysis of the deposited data

Results flagged for a closer look

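Among 670 groups of 4 libraries examined for the genes named in the text and 4 library measures, 37 (5.52%) held 1 library whose gap to the nearest other, divided by the range of the group, was above Dixon's 95% critical value for 4 samples. Chance flags about 1 in 20 groups. Control replicate 1 was the library in 16 of the 37. Control replicate 1 was the lowest of its group for ALDOA (1030 CPM), HMGB3 (63.4 CPM), MCM7 (314 CPM), PHGDH (143 CPM), POLD2 (141 CPM), POLE4 (37.9 CPM), RIGI (15.8 CPM), SLC3A2 (162 CPM), SMAD6 (32.7 CPM), TUBB2A (42.8 CPM), TUBB3 (373 CPM) and WNT5B (248 CPM) and the highest of its group for FOXM1 (277 CPM), H2BC4 (0.81 CPM), NR3C1 (112 CPM) and RBL1 (42.5 CPM). Control replicate 2 was the lowest of its group for HMGB1P5 (14.1 CPM) and the highest of its group for DNAI3 (0.814 CPM). Control replicate 3 was the lowest of its group for CLCA2 (0 CPM) and COL4A1 (240 CPM) and the highest of its group for HBEGF (43.4 CPM), KLF11 (10.8 CPM) and SULF2 (0.0484 CPM). Control replicate 4 was the highest of its group for H2BC21 (2.66 CPM) and HMGB1P6 (76.4 CPM). Doxorubicin replicate 1 was the lowest of its group for PSG4 (2.58 CPM) and TK2 (44.9 CPM) and the highest of its group for IGFBP5 (127 CPM). Doxorubicin replicate 2 was the lowest of its group for BDNF (81 CPM), H1-2 (21.2 CPM) and NOTCH3 (1.84 CPM). Doxorubicin replicate 3 was the highest of its group for CDKN1C (0.219 CPM), FOXQ1 (0.0548 CPM) and PRPS1 (300 CPM). Doxorubicin replicate 4 was the lowest of its group for CDH10 (42.7 CPM) and CHAF1B (5.62 CPM) and the highest of its group for PPARD (85.1 CPM).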

How the results depend on the processing

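Counts of called genes stayed within 1.5 times of 4467 higher and 4444 lower in every alternative run. With library totals alone they were 3198 and 5811, and lists in which most tested members were called higher went from 18 to 11. With no filter on low counts 20618 genes were tested and 4611 and 4569 called, and with a minimum count of 50 they were 4087 and 4259. DESeq2 gave 4384 and 4304. The replicate block, which the check of the numbers does not support as a pairing (2 of 4 control libraries correlated best with their own number), gave 4570 and 4494. Leaving out each library in turn gave 4234 to 4458 higher and 4244 to 4486 lower, with at least 2-fold calls of 639 to 687 and 1146 to 1183; without control replicate 1 they were 4458 and 4486. Of 5570 pairs of a named gene and an alternative, 7 lost the call and 1 gained it (CD68, GADD45B, TUBB3 and TUG1) and 0 reversed. The median of 8 lists changed sign with library totals alone, and those of tubulins, glycolysis and the proteasome did so without doxorubicin replicate 4. The excess of CHR promoters in genes at least 4-fold lower over genes not called was 23.6 percentage points, and 13.8 with the 150 bases before the start alone, a window that leaves out the bases after the start. Since promoters were at hand for 75.4% of the genes at least 4-fold lower, both values describe only those promoters. The median of the longest of 5 classes of gene span minus that of the shortest was -0.039, and -0.055 among genes with a mean log2 CPM of at least 1; the cause was not tested. Depth limits genes near 0.145 to 0.176 CPM, such as CCND2 and FOXQ1.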

Other observations

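An identifier without a gene name on chromosome 6, ENSG00000285976.2, overlaps PTP4A1, a phosphatase, in GENCODE 29 and was looked at after its values were seen. It was at 1.02 ± 0.736 CPM in control and 78.9 ± 37.5 CPM in doxorubicin libraries (mean ± SD, n = 4), where the 4 values ran from 28.3 to 114 CPM. PTP4A1 was at 126 ± 7.91 and 78.9 ± 28.7 CPM, and the library lowest in one was the highest in the other among the doxorubicin libraries. The sum of both was 127 ± 7.50 CPM in control and 158 ± 10.3 CPM in doxorubicin, and each of these differences had p = 0.0286 in a two-sided exact permutation test, the smallest it can give. How reads were divided between the identifiers was not tested.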
